A study of Mus musculus with 11 samples.

Results

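The comparison described here put the de novo DNA methyltransferase isoform Dnmt3b1 back into TKO mouse embryonic stem (ES) cells and set the transcripts of that line against TKO itself. Its members were the 2 libraries whose genotype is given as TKO+Dnmt3b1 and TKO, out of 11 libraries in 9 groups. TKO cells lack Dnmt1, Dnmt3a and Dnmt3b, and this loss is shared by every line with an enzyme put back into TKO. DKO cells lack Dnmt3a and Dnmt3b and keep Dnmt1. The libraries set beside the pair were WT (1 library), TKO with Dnmt3a1 (2 libraries), TKO with Dnmt3a2 (2 libraries), and 1 library each of DKO and of DKO with Dnmt3a1, Dnmt3a2 or Dnmt3b1. The ES cells were J1 cells of strain 129S4/SvJae, kept in serum and LIF with no treatment, on a layer of irradiated mouse embryonic fibroblasts (feeder cells). The construct that carries each enzyme, its promoter, and whether a line is 1 clone or a pool were not given in the sources used here. A line with 1 library stands for its genotype, so that genotype, clone and culture cannot be told apart.

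DNA methylation in mammals is laid down by Dnmt3a and Dnmt3b on unmethylated DNA and copied onto the new strand by Dnmt1 after replication. Dnmt3b1 is the full-length catalytic isoform of Dnmt3b that is found in early embryos and ES cells, where Dnmt3l acts as a cofactor of both enzymes. ES cells survive and divide without any of the 3 enzymes. Genes known to be held silent by promoter methylation in these cells include germline genes and clusters on the X chromosome. Feeder fibroblasts no longer divide, but they carry their own RNA into a lysate of the culture, so that a bulk library holds transcripts of both cell types.

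PolyA RNA was measured as RPKM (reads scaled for transcript length and for library depth). The spacing of the RPKM values implied 21.7 M reads in TKO+Dnmt3b1 and 25.9 M in TKO, with 22.3 to 32.8 M in the other libraries. At this depth 1 read in a 2 kb transcript is worth 0.0230 RPKM in TKO+Dnmt3b1. Differences are given as log2(RPKM + 0.5), a scale on which the change of a gene of low level is understated, and 14229 of 24016 genes were tested because they reached 1 RPKM in a library. Of 6 ES cell markers, the transcription factor Pou5f1 was at 454 RPKM in TKO and 454 RPKM in TKO+Dnmt3b1, the lowest of its 11 values, and Utf1, a chromatin protein, was at 221 and 228 RPKM. Nanog differed by -1.30 and Sox2 by -1.08, while Sall4 and Lin28a differed by 0.27 and 0.68. Counts and medians of gene lists are over every member in the table, whether or not it reached 1 RPKM, because some members reached it with Dnmt3b1 alone. Among all 24016 genes, 1529 (6.37%) were higher by 1 or more in TKO+Dnmt3b1 than in TKO and 996 (4.15%) were lower by as much.

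Transcripts of the feeder layer stood far higher in TKO+Dnmt3b1 than in TKO. Col1a1, a chain of type I collagen, was at 38.1 RPKM in TKO and 235 RPKM in TKO+Dnmt3b1. In the rest of the TKO family it was at 39.6 and 30.0 RPKM with Dnmt3a1 and at 60.2 and 34.4 RPKM with Dnmt3a2, and WT was at 32.2 RPKM. In the DKO family it was at 83.1 RPKM without an enzyme, 36.8 with Dnmt3a1, 10.9 with Dnmt3a2 and 175 RPKM with Dnmt3b1. The 2 libraries with Dnmt3b1 were thus above all others. Col1a2, the partner chain, was at 24.4 and 147 RPKM in TKO and TKO+Dnmt3b1, and Col3a1, the chain of type III collagen, at 4.91 and 29.0 RPKM. On the log2 scale the 3 collagens were higher by 2.61, 2.57 and 2.45.

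Of 30 fibroblast markers 26 were higher by 1 or more, with a median of 2.20, against a median of -0.015 over all genes tested. Their mean log2 level was 5.54 in TKO+Dnmt3b1 and 5.18 in DKO+Dnmt3b1, and ran from 1.67 (DKO+Dnmt3a2) to 3.99 (DKO) in the other 9 libraries. The summed RPKM of the list was 2787 in TKO+Dnmt3b1 and 777 in TKO, and no fibroblast marker was listed at 0 in any library. The difference in mean level between TKO+Dnmt3b1 and TKO, 1.98 on the log2 scale, is called the fibroblast difference below. DKO+Dnmt3a2, with the lowest fibroblast level, is given beside a gene to show what that gene reached where feeder transcripts were scarcest. In bulk RNA, more feeder cells, fewer ES cells and more of a transcript per cell cannot be told apart.

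Markers of macrophages, which are not a labelled component of the culture, were higher by 1 or more in 17 of 19 members, with a median of 1.72. Of these markers 16 were at 1 RPKM or more in TKO+Dnmt3b1 and 7 in TKO. Lyz2, the macrophage lysozyme, was at 28.7 RPKM in TKO and 193 RPKM in TKO+Dnmt3b1. It was at 63.3 RPKM in DKO, 180 RPKM in DKO+Dnmt3b1 and 0.0660 RPKM in DKO+Dnmt3a2. Lyz2 thus had the same order as Col1a1 across these 5 libraries. The 2 lists did not move together everywhere. In replicates 1 and 2 of TKO+Dnmt3a2 the summed RPKM was 958.9 and 647.3 for fibroblast markers, but 81.0 and 84.67 for macrophage markers. Mpeg1, a macrophage pore protein, was at 0.640 and 12.3 RPKM in TKO and TKO+Dnmt3b1. The complement genes C1qa, C1qb and C1qc were at 6.44, 4.76 and 6.91 RPKM in TKO+Dnmt3b1 and listed at 0 in DKO+Dnmt3a2. The summed RPKM of 19 macrophage markers was 319 in TKO+Dnmt3b1 and 292 in DKO+Dnmt3b1, and 13.1 to 116 in the other 9 libraries. Of 10 endothelial markers 2 were higher by 1 or more and 1 was lower, with a median of 0.40. The sign of this median depends on members under 1 RPKM. Over the 7 tested members it was -0.389, with 3 higher and 4 lower. The summed RPKM of the 10 was 76.22 in TKO and 51.91 in TKO+Dnmt3b1.

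**Figure D1:**
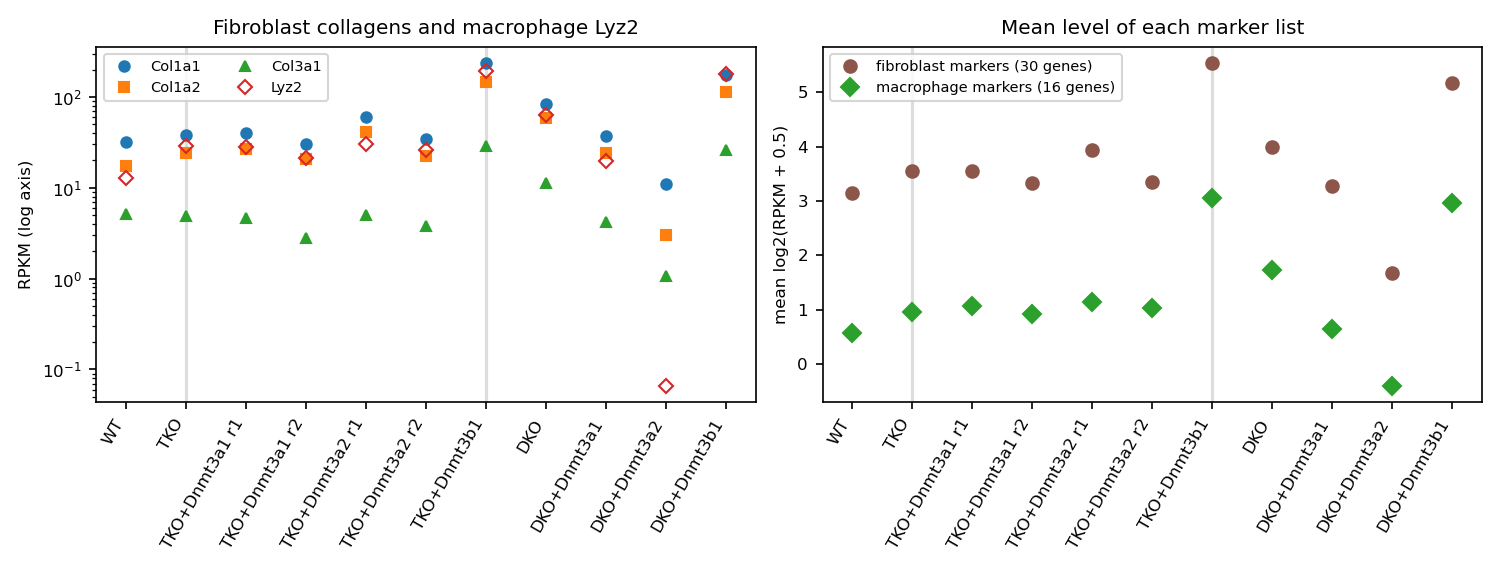
Left, RPKM (log axis) of the fibroblast collagens Col1a1, Col1a2 and Col3a1 and of macrophage Lyz2 in each of the 11 libraries; right, mean log2(RPKM + 0.5) of 30 fibroblast markers and of the 16 macrophage markers that reached 1 RPKM in a library; r1 and r2 are replicates, 1 point is 1 library, and grey lines mark TKO and TKO+Dnmt3b1. Both Dnmt3b1 libraries sit at the top of each panel, with fibroblast levels of 5.54 and 5.18, and DKO+Dnmt3a2 sits lowest in the right panel at 1.67.

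Dnmt3b, the gene that was put back, was at 45.3 RPKM in TKO and 100 RPKM in TKO+Dnmt3b1, 1.14 higher (SE 0.32). Its level was 25.0 RPKM in WT, 28.9 and 20.9 RPKM with Dnmt3a1, and 44.4 and 32.9 RPKM with Dnmt3a2. In the DKO family it was 5.68 RPKM without an enzyme, 13.3 and 14.7 RPKM with Dnmt3a1 and Dnmt3a2, and 29.6 RPKM with Dnmt3b1. TKO+Dnmt3b1 was thus the highest of the 11 libraries. TKO held more Dnmt3b RNA than WT: a value over the whole gene does not separate the added copy from transcripts of the disrupted gene, and so does not check the deletion. Against the mean of the 4 TKO+Dnmt3a1 and TKO+Dnmt3a2 libraries, Dnmt3b was higher by 1.69, with an adjusted p of 0.0389 in limma. The Dnmt3b1 arm of that test is 1 library. This call, and every other call against the Dnmt3a lines named below, was lost with a pseudocount of 0.1, without either TKO+Dnmt3a1 library, and in a fit with the fibroblast level.

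Dnmt3a differed by as much as Dnmt3b between the pair, and Dnmt1 by less. Dnmt1, the maintenance enzyme, was at 6.73 RPKM in TKO and 12.4 RPKM in TKO+Dnmt3b1, against 71.0 RPKM in WT. Dnmt3a was at 4.24 RPKM in TKO and 10.2 RPKM in TKO+Dnmt3b1, against 22.7 RPKM in WT, a difference of 1.18 (SE 0.46) in the pair. Both were thus below WT in the pair, and neither difference passed the test. The cofactor Dnmt3l was at 391 and 346 RPKM, Uhrf1, which brings Dnmt1 to replicated DNA, at 119 and 129 RPKM, and the methylcytosine oxidase Tet1 at 44.9 and 31.5 RPKM in TKO and TKO+Dnmt3b1. Of 13 methyltransferases and partners 2 were higher by 1 or more and none lower. Of 22 Tet oxidases, base excision enzymes and methyl-CpG readers 4 were higher by 1 or more and 3 lower, with a median of -0.30.

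No gene passed the test between TKO+Dnmt3b1 and TKO: 0 of 14229 genes (0%) were called by limma, the smallest Benjamini-Hochberg adjusted p was 0.09475, and 3318 genes had an unadjusted p under 0.05. With 1 library an arm the spread came from the 2 replicated lines, so that the differences that follow are descriptions of 2 libraries. By size alone, 1432 genes (10.1%) were higher by 1 or more in TKO+Dnmt3b1 and 949 (6.67%) were lower by as much. Of these, 1379 of the higher genes (96.3%) and 875 of the lower genes (92.2%) differed by more than the gap within each replicated line, as 58.0% of all genes tested did. These genes were picked for a difference of 1 or more, and few gaps are that large. In TKO+Dnmt3a2, 2.0% of genes tested had a gap of 1 or more and 1.9% of -1 or less. The high shares are thus largely fixed by that choice and are no separate evidence.

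The same enzyme in the other parent line, DKO+Dnmt3b1 against DKO, uses neither of these libraries. There 1407 genes (9.89%) were higher by 1 or more, 1309 (9.2%) were lower, and limma called 0 genes (0%), with 3873 at an unadjusted p under 0.05. The 2 comparisons shared 909 of the higher genes, 63.5% of those in TKO and 64.6% of those in DKO, and 510 of the lower genes, 53.7% and 39.0%. The fibroblast level was higher in both. The replicates of TKO+Dnmt3a2 form a pair of 1 genotype that also differs in fibroblast level, with 3.94 in replicate 1 and 3.35 in replicate 2. Of the 1432 genes higher in TKO+Dnmt3b1, 1271 (88.8%) were higher in replicate 1 of that pair, against 54.1% of all genes. Of the 949 lower genes 821 (86.5%) were lower in replicate 1, against 45.5% of all genes. The direction of most of these genes was thus also seen between the replicates of TKO+Dnmt3a2. The gaps in that line were smaller, with a median of 0.54 over the higher genes and -0.45 over the lower. For the replicates of TKO+Dnmt3a1 these shares were not counted. Across all genes tested the gaps of the 2 replicated lines correlated at 0.086. Of the higher genes 671 (46.9%) stood more than 4-fold above DKO+Dnmt3a2 in TKO+Dnmt3b1, as 6.0% of all genes did. The value in TKO+Dnmt3b1 also served to pick the higher genes, so that part of this excess is fixed by that choice.

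**Figure D2:**
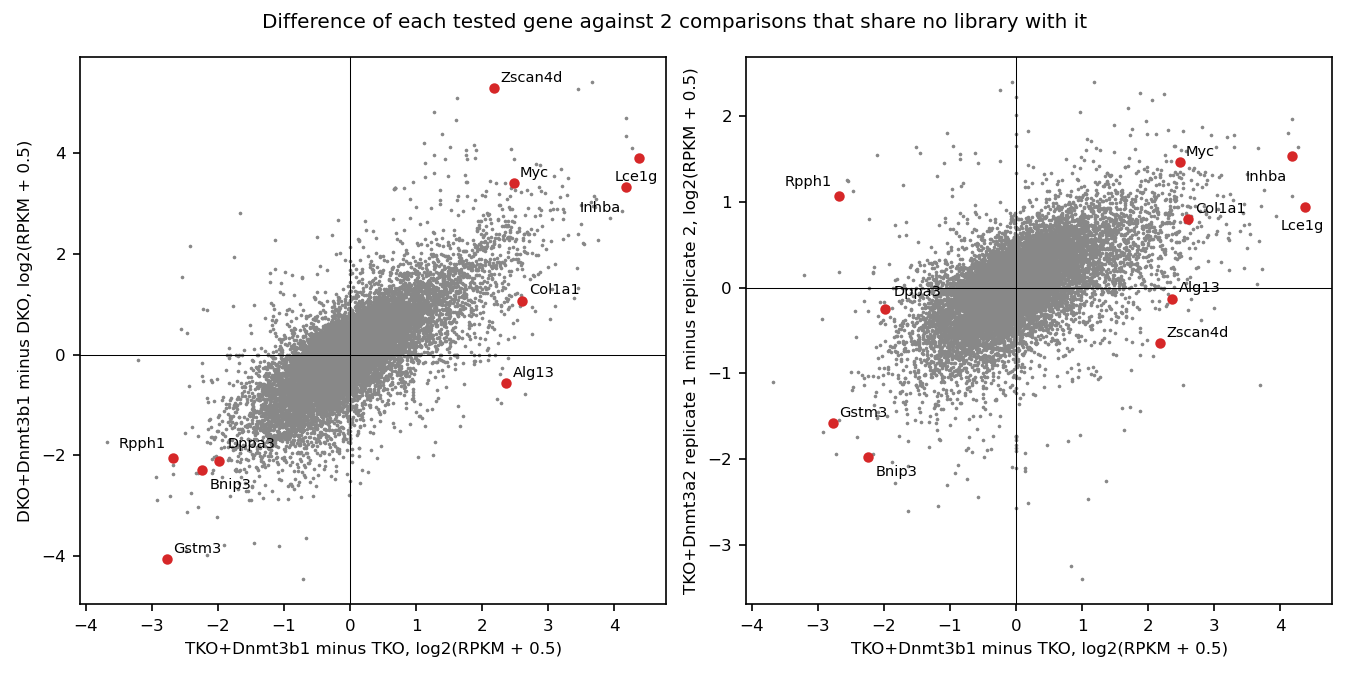
Each grey point is 1 of 14229 genes; the horizontal axis is TKO+Dnmt3b1 minus TKO, the vertical axis DKO+Dnmt3b1 minus DKO (left) or TKO+Dnmt3a2 replicate 1 minus replicate 2 (right), all as log2(RPKM + 0.5), and 10 genes are named in red. Lce1g and Inhba lie high on the axes of both Dnmt3b1 comparisons, at 4.38 and 3.91 and at 4.17 and 3.32, Bnip3 lies low on all axes, and Alg13 is higher on the horizontal axis only, at 2.37 against -0.56 and -0.13.

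Several secreted proteins and a receptor were among the 12 largest differences upward. Inhba, a subunit of the TGF-beta family ligand activin A, was at 7.10 RPKM in TKO and 136 RPKM in TKO+Dnmt3b1, 4.17 higher (SE 0.68). It was at 3.37 RPKM in WT, 6.89 and 6.49 with Dnmt3a1 and 22.3 and 7.33 with Dnmt3a2. DKO had 8.94 RPKM, and its lines with Dnmt3a1, Dnmt3a2 and Dnmt3b1 had 10.03, 1.68 and 93.8 RPKM. The 2 Dnmt3b1 libraries were above the rest without overlap, and the next highest was the replicate of TKO+Dnmt3a2 with more fibroblast RNA. Grem1, a secreted antagonist of bone morphogenetic proteins, was at 3.74 and 73.3 RPKM in the TKO pair, and Dkk2, a secreted Wnt regulator, at 0.636 and 17.0 RPKM. Tnc, the matrix glycoprotein tenascin C, was at 20.8 and 286 RPKM, and Il1rl1, the receptor of interleukin 33, at 16.05 and 209 RPKM. In DKO+Dnmt3a2 these 5 genes were at 0.075 (Dkk2) to 2.41 RPKM (Il1rl1), all below their level in TKO. The 12 largest differences upward also included the macrophage elastase Mmp12 (0.834 and 17.1 RPKM), the retinol dehydrogenase gene Dhrs9 (0.176 and 8.34 RPKM), the hairpin Mir7676-1 and 3 Lce1 genes. All 12 were higher by 1 or more in DKO+Dnmt3b1 than in DKO.

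Of 42 genes of secreted stress and inflammatory factors, 32 were higher by 1 or more and 1 was lower, with a median of 1.86 in the TKO pair, 1.65 in the DKO pair and 0.74 between the TKO+Dnmt3a2 replicates. Il11, an interleukin of the IL-6 family, was at 0.490 RPKM in TKO, 11.9 RPKM in TKO+Dnmt3b1 and 0.178 to 0.658 RPKM in the other libraries apart from DKO+Dnmt3b1, which had 8.46 RPKM. Its gap between the TKO+Dnmt3a2 replicates was 0.039, but at so low a level this scale understates a gap. Il11 thus stood apart in the 2 Dnmt3b1 libraries, while the replicate gap cannot show whether it follows the fibroblast level. Serpinb2, a plasminogen activator inhibitor, was at 4.01 and 48.8 RPKM, and the EGF receptor ligand Ereg at 0.349 and 9.34 RPKM in TKO and TKO+Dnmt3b1. Ccl2, a chemokine for monocytes, was at 31.0 and 136 RPKM, but also at 88.5 and 25.2 RPKM in the replicates of TKO+Dnmt3a2. Gdf15, a stress-induced TGF-beta family member, was the 1 gene lower by 1 or more, at 14.8 and 6.72 RPKM. Of the 40 genes that were tested 23 were called as higher in the test against TKO+Dnmt3a1 and TKO+Dnmt3a2 described below, against 3.1% of all genes tested. Among the 40, 6 reached 1 RPKM in Dnmt3b1 libraries alone, so that they were tested only because they were high there. The share of these transcripts that came from feeder cells was not tested.

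**Figure D3:**
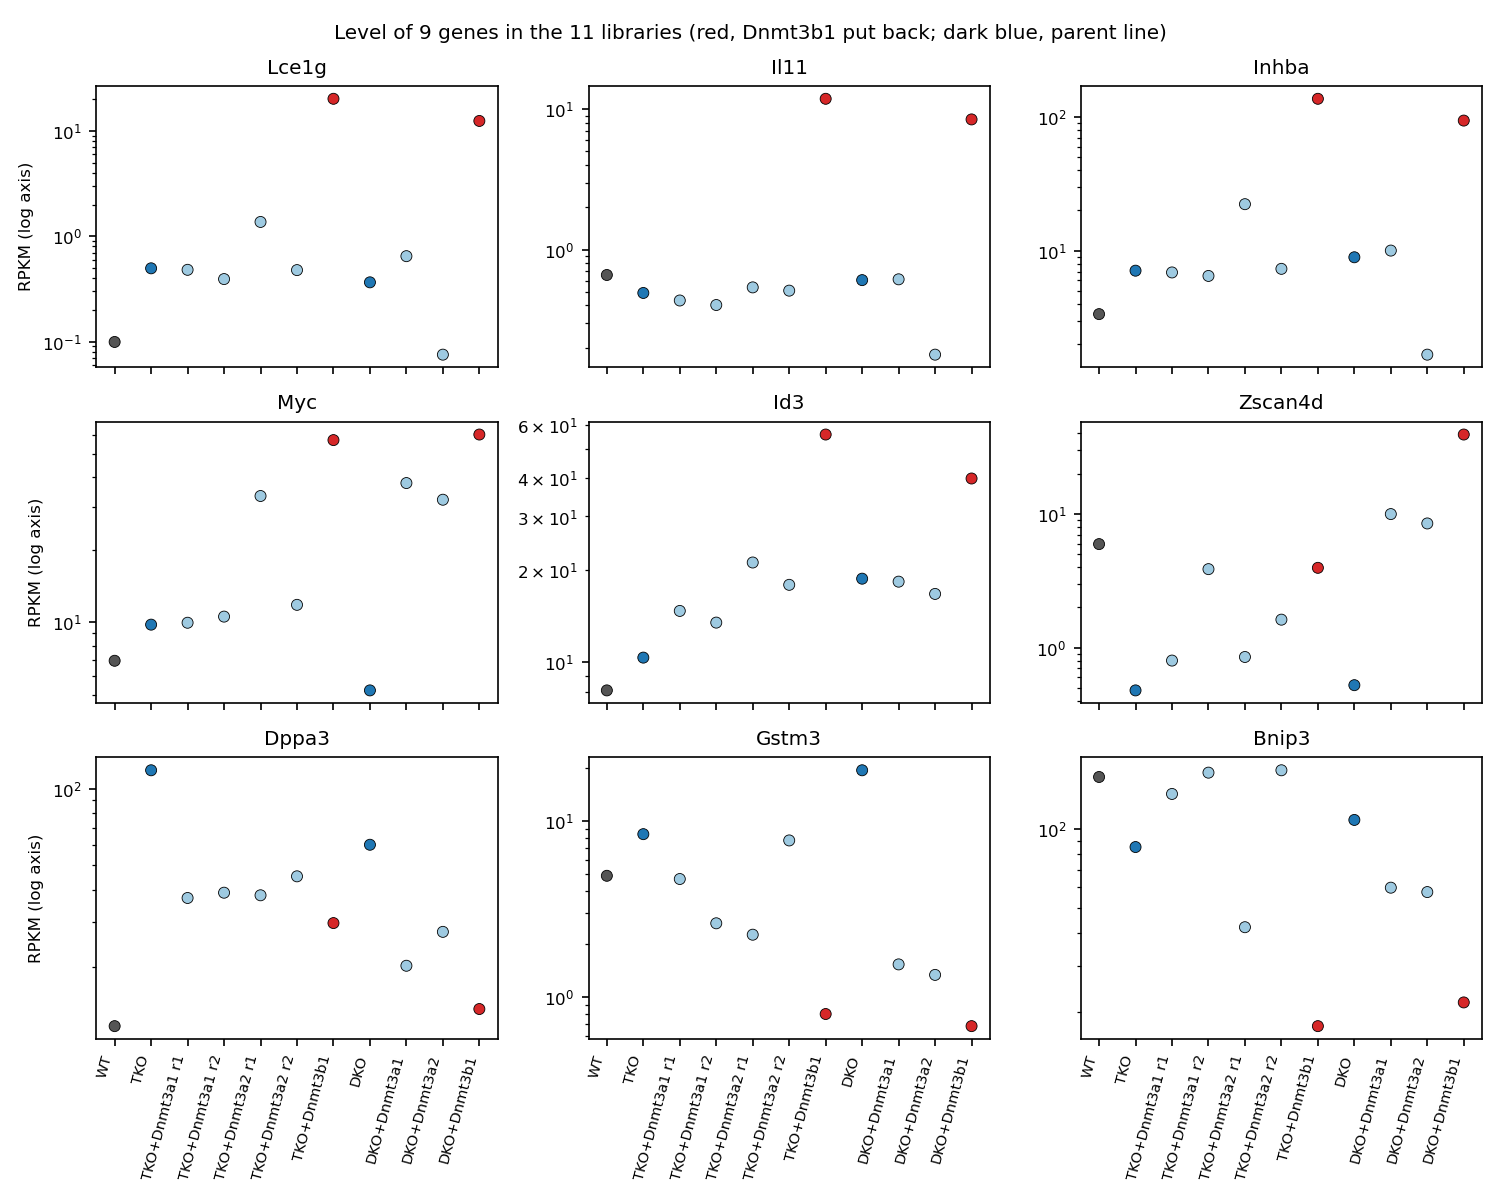
RPKM (log axes, a separate range in each panel) of 9 genes in the 11 libraries, 1 point for 1 library; red marks TKO+Dnmt3b1 and DKO+Dnmt3b1, dark blue TKO and DKO, light blue the Dnmt3a lines and grey WT. Lce1g, Il11 and Inhba are high in both red points and low elsewhere, Myc is also high in 1 TKO+Dnmt3a2 replicate and both DKO lines with Dnmt3a, Zscan4d is highest in DKO+Dnmt3b1 at 39.3 RPKM, and Gstm3 and Bnip3 are lowest in the red points.

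Genes of the cornified envelope, the protein shell of outer skin cells, included the largest single difference. Lce1g, a late cornified envelope protein, was at 0.496 RPKM in TKO and 20.2 RPKM in TKO+Dnmt3b1, 4.38 higher (SE 0.50). It was at 0.365 RPKM in DKO, 12.5 RPKM in DKO+Dnmt3b1, 0.480 and 0.392 RPKM in TKO with Dnmt3a1, 1.37 and 0.477 RPKM with Dnmt3a2, and 0.099, 0.647 and 0.075 RPKM in WT and in DKO with Dnmt3a1 and with Dnmt3a2. No other library came near the 2 with Dnmt3b1. Its neighbours in the family, Lce1h and Lce1f, were at 0.811 and 0.692 RPKM in TKO and at 23.2 and 21.0 RPKM in TKO+Dnmt3b1. Lce1h was also at 5.12 RPKM in replicate 1 of TKO+Dnmt3a2 against 0.936 RPKM in replicate 2. How reads that match several members of this family were counted is not given in the sources used here, so that the value of each is uncertain. The small proline-rich envelope genes Sprr1a and Sprr2k were at 0.338 and 1.20 RPKM in TKO and 7.33 and 7.28 RPKM in TKO+Dnmt3b1. Of 50 members 38 did not reach 1 RPKM in any library, 6 reached it in TKO and 9 in TKO+Dnmt3b1. Over the 50, 12 were higher by 1 or more and Krt16, a keratin, was lower by 1.29, with a median of 0.073. Most of the list thus stayed under 1 RPKM. The keratinocyte genes Krt14 and Trp63 stayed below 1 RPKM in every library and were not tested. Lce1f, Lce1g, Sprr1a, Sprr2k and Sbsn were called as higher than in the Dnmt3a lines.

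The 250 bases before the start of 2 of these genes are shown because both were under 1 RPKM in TKO and over 20 RPKM in TKO+Dnmt3b1, where an enzyme that methylates CG was added. The sequences are RefSeq's for build GRCm38.p6, printed 5′ to 3′ along the gene's strand, with each CG in capitals. They lie at chr3:92752339-92752588 (Lce1g, minus strand) and chr3:92765066-92765315 (Lce1h, minus strand).
Lce1g: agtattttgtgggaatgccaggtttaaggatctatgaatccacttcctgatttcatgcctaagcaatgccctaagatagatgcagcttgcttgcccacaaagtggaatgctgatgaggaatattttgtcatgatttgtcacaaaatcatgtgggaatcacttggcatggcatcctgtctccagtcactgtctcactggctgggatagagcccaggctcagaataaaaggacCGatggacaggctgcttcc
Lce1h: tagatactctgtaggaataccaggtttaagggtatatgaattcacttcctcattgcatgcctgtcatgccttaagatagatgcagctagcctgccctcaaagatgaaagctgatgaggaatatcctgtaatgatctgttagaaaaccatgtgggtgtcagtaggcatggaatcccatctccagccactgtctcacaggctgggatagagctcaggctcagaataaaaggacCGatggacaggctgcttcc
Counted from the end nearest the start, 173 of 250 bases (69.2%) were identical, and each held 1 CG, at the same place. Of 27025 promoters of this length 91.7% held 1 CG or more, and the median was 6. Methylation itself was not measured in these files.

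Some genes were higher in TKO+Dnmt3b1 and also had a level in DKO+Dnmt3a2 within 4-fold of it, so that they were present where feeder RNA was scarcest. Myc, a growth-promoting transcription factor, was at 9.78 RPKM in TKO and 56.9 RPKM in TKO+Dnmt3b1, 2.48 higher (SE 0.64). It was at 6.93 RPKM in WT, 9.96 and 10.6 with Dnmt3a1 and 33.4 and 11.8 with Dnmt3a2. DKO had 5.22 RPKM, and its lines with Dnmt3a1, Dnmt3a2 and Dnmt3b1 had 37.8, 32.2 and 60.001 RPKM. Every DKO line with an enzyme was thus above DKO, including the one with the lowest fibroblast level, while the replicates of TKO+Dnmt3a2 differed by 1.46. Zfp936, a zinc finger gene, was likewise high in these libraries, at 2.94 RPKM in TKO, 17.6 in TKO+Dnmt3b1, 15.4 and 4.56 in TKO+Dnmt3a2, and 23.8 in DKO+Dnmt3a2. Spred3, an inhibitor of Ras signalling, was at 1.69 and 10.1 RPKM in the TKO pair and 4.36 and 1.24 RPKM in TKO+Dnmt3a2.

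Id3, a BMP-induced inhibitor of helix-loop-helix factors, differed between the TKO pair without a gap of like size among replicates. It was at 10.3 RPKM in TKO and 55.7 RPKM in TKO+Dnmt3b1, 2.37 higher (SE 0.23), while the 4 TKO+Dnmt3a libraries ran from 13.5 to 21.2 RPKM. Against these 4 it was higher by 1.72, with an adjusted p of 0.0346 in limma. In the DKO family it was at 18.8 RPKM in DKO, 18.3 and 16.7 RPKM with Dnmt3a1 and Dnmt3a2, and 40.0 RPKM with Dnmt3b1. Id3 was thus higher in both lines with Dnmt3b1 than in any other. Ptgs1, the constitutive cyclooxygenase, was at 0.519 and 4.29 RPKM in TKO and TKO+Dnmt3b1 and was higher than in the Dnmt3a lines by 2.03 (adjusted p 0.0346, limma).

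Alg13, an enzyme of N-glycan assembly on the X chromosome, had a pattern of its own. It was at 66.0 RPKM in WT and 8.78 in TKO, and at 47.3 RPKM in TKO+Dnmt3b1, 2.37 higher than in TKO (SE 0.22). With Dnmt3a1 it was at 59.5 and 49.0 RPKM, and with Dnmt3a2 at 6.74 and 7.42 RPKM. The level was thus near that of WT with Dnmt3b1 and Dnmt3a1 and near that of TKO with Dnmt3a2. The DKO lines had 105 (DKO), 80.3 (Dnmt3a1), 87.9 (Dnmt3a2) and 71.1 RPKM (Dnmt3b1). Against the mean of the Dnmt3a lines it was 1.23 higher with an adjusted p of 0.0374 in limma, though both TKO+Dnmt3a1 libraries were above it. Its promoter is shown because its level did not follow the fibroblast markers across lines. It held 15 CG, and 27.5% of promoters held as many or more. It lies at chrX:144317716-144317965 (GRCm38.p6, plus strand, CG in capitals).
Alg13: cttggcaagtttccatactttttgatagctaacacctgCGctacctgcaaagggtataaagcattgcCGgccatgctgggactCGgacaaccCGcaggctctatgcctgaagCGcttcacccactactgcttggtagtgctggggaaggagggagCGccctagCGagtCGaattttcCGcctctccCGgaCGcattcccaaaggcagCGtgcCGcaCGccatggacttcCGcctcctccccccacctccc

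Other members named by the same criterion were short RNAs with few reads. Snord93, a guide RNA of ribosomal RNA modification, had 0 reads in TKO and 5 in TKO+Dnmt3b1, and the hairpin Mir1893 had about 6 and 26.9 reads. The hairpins Mir7036, Mir6907 and Mir6991 and Snord88a had 3 to 11 reads in TKO+Dnmt3b1. At such counts these differences describe a handful of reads.

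Among regulators of early transcription, 8 of 16 immediate early genes were higher by 1 or more and none lower in the TKO pair, with a median of 0.84. In the DKO pair 4 were higher by 1 or more and 3 lower, with a median of 0.17. Jun, a component of the AP-1 transcription factor, was at 13.4 RPKM in TKO and 67.3 RPKM in TKO+Dnmt3b1, and its partners Fosl1 and Fosl2 were at 4.56 and 38.7 RPKM and at 4.69 and 24.4 RPKM. In DKO+Dnmt3a2 the 3 genes were at 4.52, 1.73 and 1.69 RPKM, below their levels in TKO. Fos itself was at 3.55 and 4.54 RPKM in the TKO pair and at 20.5 and 5.20 RPKM in the DKO pair. Jun, Fosl2 and the stress factor Atf3 were called as higher than in the Dnmt3a lines.

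Genes of the 2-cell-like state, a rare condition of ES cells that express transcripts of the 2-cell embryo, were higher in 21 of 25 members and by 1 or more in 15, with a median of 1.37. Of these genes 18 were at 1 RPKM or more in TKO+Dnmt3b1 and 7 in TKO, and 4 reached it with Dnmt3b1 alone. The size of this median depends on the pseudocount: over the 21 tested members it was 1.44, against 2.28 with a pseudocount of 0.1 and 0.98 with 1. Zscan4d, a zinc finger gene that marks this state, was at 0.478 RPKM in TKO and 3.95 RPKM in TKO+Dnmt3b1. It was also at 0.799 and 3.86 RPKM in the replicates of TKO+Dnmt3a1, a gap of 1.75 within 1 line beside the 2.19 of the pair. WT was at 5.94 RPKM, DKO at 0.523 RPKM and DKO+Dnmt3b1 at 39.3 RPKM. The gap between TKO+Dnmt3a2 replicates had a median of -0.054 over the list, too small to give a direction. Over the tested members the mean log2 level was 0.73 and 1.59 in the replicates of TKO+Dnmt3a1. It was 0.70 in TKO and 1.91 in TKO+Dnmt3b1. In the DKO pair the median was 3.075, the highest of the 27 lists. Zscan4, Usp17l and Tdpoz genes are close copies, and their single values are uncertain. Arg2, the mitochondrial arginase, was the member called against the Dnmt3a lines, at 4.54 RPKM in TKO+Dnmt3b1 and 0.830 to 1.62 RPKM in those 4 libraries.

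Hox genes, which pattern the body axis, were higher in 32 of 39 members and by 1 or more in 18, with a median of 0.78 in the TKO pair, 1.065 in the DKO pair and 0.42 between the TKO+Dnmt3a2 replicates. Their levels were low, with 26 at 1 RPKM or more in TKO+Dnmt3b1 and 13 in TKO, and 8 reached it with Dnmt3b1 alone. Hoxd8 was at 1.09 RPKM in TKO and 3.55 RPKM in TKO+Dnmt3b1, and Hoxa5 at 0.530 and 1.79 RPKM. Of the interferon-stimulated and RNA sensing genes 13 of 39 were higher by 1 or more and 2 lower, with medians of 0.68 and 0.49 in the TKO pair and between the TKO+Dnmt3a2 replicates. Isg15, a ubiquitin-like protein induced by interferon, was at 15.3 RPKM in TKO, 44.0 in TKO+Dnmt3b1, and 52.9 and 13.8 RPKM in the replicates of TKO+Dnmt3a2. The replicates thus differed by more than the pair. None of the 37 that were tested was called against the Dnmt3a lines.

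Pluripotency genes were lower or near their TKO level. Nanog was at 406 RPKM in TKO and 164 RPKM in TKO+Dnmt3b1, 1.30 lower (SE 0.32). It was at 214 RPKM in WT, 300 and 443 RPKM in TKO+Dnmt3a1, 238 and 231 RPKM in TKO+Dnmt3a2, and 148 to 164 RPKM in the DKO family. Nanog in TKO+Dnmt3b1 was thus the lowest of the TKO family and close to the DKO family. Tcl1, a coactivator of the kinase Akt, was at 49.9 and 18.0 RPKM in TKO and TKO+Dnmt3b1, and Sox2 at 259 and 122 RPKM. Esrrb, an orphan nuclear receptor, was at 114 and 56.4 RPKM, and Klf4 at 49.2 and 45.8 RPKM. Of 26 naive pluripotency genes 5 were lower by 1 or more and none higher by as much, with a median of -0.20. Of 23 formative and primed genes 5 were higher by 1 or more and none lower by as much, with a median of 0.46. Otx2, a transcription factor of the primed state, was at 0.585 RPKM in TKO and 1.74 RPKM in TKO+Dnmt3b1, against 7.60 RPKM in WT, 7.06 and 7.14 RPKM with Dnmt3a1 and 0.950 and 0.954 RPKM with Dnmt3a2. Like Alg13, it thus had a level near WT with Dnmt3a1 and near TKO with Dnmt3a2, but with Dnmt3b1 it lay between.

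Dppa3, known for shielding maternal methylation marks in the zygote, was lower in TKO+Dnmt3b1 by more than the replicate gaps. It was at 118 RPKM in TKO and 29.6 RPKM in TKO+Dnmt3b1, 1.98 lower (SE 0.21). It was at 11.7 RPKM in WT, 37.2 and 39.0 with Dnmt3a1 and 38.1 and 45.3 with Dnmt3a2. DKO had 60.2 RPKM, and its lines with Dnmt3a1, Dnmt3a2 and Dnmt3b1 had 20.1, 27.4 and 13.6 RPKM. Every line with an enzyme was thus below its parent, and WT was below all. The gap between TKO+Dnmt3a2 replicates was -0.24, and the difference from the 4 Dnmt3a libraries, -0.42, did not pass the test (adjusted p 0.184, limma). Of 13 Dppa and Pramel genes 3 were lower by 1 or more: Dppa3, Pramel6 (6.11 and 2.66 RPKM) and Pramel7 (4.77 and 2.10 RPKM).

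Germline genes with promoters known to be methylated showed no common direction: of 44 genes 3 were higher by 1 or more and 2 lower, with a median of 0.069. Dazl, an RNA-binding protein of germ cells, was at 42.2 RPKM in TKO and 29.0 RPKM in TKO+Dnmt3b1. In the Dnmt3a lines it was at 7.30, 15.9, 6.87 and 5.55 RPKM, and in WT at 8.73 RPKM. TKO+Dnmt3b1 was above all 4 of the Dnmt3a libraries, though the difference of 1.77 did not pass the test (adjusted p 0.0767, limma). In the DKO family Dazl was at 18.7 RPKM in DKO, 2.92 and 2.96 with Dnmt3a1 and Dnmt3a2, and 9.01 RPKM with Dnmt3b1, the same order. Tex19.1, a germ cell gene that restrains transposons, was at 99.8 and 116 RPKM in TKO and TKO+Dnmt3b1 and 19.2 RPKM in WT. Over the list the median of the DKO pair was -0.26, with 11 genes lower by 1 or more and none higher.

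X-linked Rhox, Xlr and Mage genes were lower in 26 of 34 members, by 1 or more in 6, with a median of -0.38 in the TKO pair against -1.24 in the DKO pair. Of these genes 12 did not reach 1 RPKM in any library, and 3 reached it in TKO or DKO alone. Over the 22 tested members the mean log2 level was 2.12 in TKO and 1.54 in TKO+Dnmt3b1. It was 1.03 and 1.84 in the replicates of TKO+Dnmt3a1, which thus differed by more than the TKO pair. Xlr3a, a chromatin protein gene of a family of close copies, was at 25.7 RPKM in TKO and 9.09 RPKM in TKO+Dnmt3b1, and at 27.7 RPKM in DKO and 1.60 RPKM in DKO+Dnmt3b1. WT was at 0.872 RPKM. Rhox9, a homeobox gene of the reproductive system, was at 12.8 and 12.3 RPKM in the TKO pair and 7.64 and 1.07 RPKM in the DKO pair. For these 2 genes DKO+Dnmt3b1 was thus closer to WT than TKO+Dnmt3b1 was. The test of the difference between the 2 parent lines called 0 of 14229 genes (0%), with a smallest adjusted p of 0.995 in limma and 647 genes at an unadjusted p under 0.05.

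Imprinted genes had a median of -0.015 over 50 members, with 2 higher by 1 or more and 3 lower. H19, a noncoding RNA expressed from the maternal allele, was at 246 RPKM in TKO and 391 RPKM in TKO+Dnmt3b1, against 29.8 RPKM in WT and 89.8, 109, 313 and 342 RPKM in the Dnmt3a lines. Its neighbour Igf2, a fetal growth factor, was at 12.7 and 48.8 RPKM in the TKO pair. Grb10, an adaptor that limits growth, was at 31.4 and 35.8 RPKM. H19, Igf2 and Grb10 were called as higher than in the Dnmt3a lines, and Phlda2, a placental growth regulator at 24.3 and 21.2 RPKM in the pair, as lower. Igf2 was at 11.98 RPKM in DKO+Dnmt3a2 and is known to be abundant in embryonic fibroblasts; its part from feeder cells was not tested.

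Genes of glycolysis and of the response to low oxygen were lower in 23 of 25 members. By size, 10 were lower by 1 or more and 1 was higher, with a median of -0.86 in the TKO pair and -1.14 in the DKO pair. Between the replicates of TKO+Dnmt3a2 the median was -0.70, and all 25 were lower in replicate 1. Bnip3, a hypoxia-induced mitochondrial protein, was at 85.3 RPKM in TKO and 17.6 RPKM in TKO+Dnmt3b1. It was at 42.1 and 168 RPKM in the replicates of TKO+Dnmt3a2, 136 and 164 RPKM with Dnmt3a1 and 158 RPKM in WT. DKO had 108 RPKM, and its lines with Dnmt3a1, Dnmt3a2 and Dnmt3b1 had 59.7, 57.4 and 21.7 RPKM. The 2 Dnmt3b1 libraries were lowest, and the gap between the TKO+Dnmt3a2 replicates, -1.98, was close to the difference of -2.24. DKO+Dnmt3a2 held intermediate Bnip3 at the lowest fibroblast level. Ddit4, a stress-induced inhibitor of mTOR, was at 121 and 22.4 RPKM in the TKO pair, and at 50.8 and 171 RPKM in TKO+Dnmt3a2. Ldhb, a lactate dehydrogenase subunit, was at 159 and 38.9 RPKM, and Aldoc, an aldolase, at 20.4 and 2.65 RPKM. Vegfa, the vascular growth factor induced by low oxygen, was at 21.7 and 22.2 RPKM. None of the 25 was called against the Dnmt3a lines.

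Glutathione transferases differed in both directions. Gstm3, a mu-class enzyme, was at 8.38 RPKM in TKO and 0.799 RPKM in TKO+Dnmt3b1, 2.77 lower (SE 0.78), and at 19.3 and 0.682 RPKM in DKO and DKO+Dnmt3b1. It was at 4.86 RPKM in WT, 4.66 and 2.61 in TKO with Dnmt3a1, 2.25 and 7.72 in TKO with Dnmt3a2, and 1.53 and 1.33 RPKM in DKO with these isoforms. The 2 Dnmt3b1 libraries were lowest, and the TKO+Dnmt3a2 replicates differed by 1.58. Its neighbour Gstm6 was at 6.92 and 1.15 RPKM in the TKO pair. The omega-class genes Gsto1 and Gsto2 were higher, at 27.7 and 173 RPKM and at 0.609 and 5.56 RPKM. Gsto1 was at 23.6 RPKM in DKO+Dnmt3a2. Of the 31 genes of the list 3 were higher by 1 or more and 5 lower. Gsto1, Gsto2 and Gpx8, a peroxidase of the endoplasmic reticulum, were called as higher than in the Dnmt3a lines and Gstp2 as lower.

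Among the 12 largest differences downward, 5 of 6 hairpins rested on 4 to 9 reads in TKO and 0 in TKO+Dnmt3b1: Mir6941, Mir6979, Mir7077, Mir7008 and Mir3094. Mir6516 had 179.7 and 18.9 reads, at 63.0 and 7.90 RPKM, and 27.4 and 89.1 RPKM in the TKO+Dnmt3a2 replicates. Rpph1, the RNA component of ribonuclease P, was at 62.8 RPKM in TKO and 9.37 RPKM in TKO+Dnmt3b1. It was at 10.9 RPKM in WT, 17.2 and 21.9 with Dnmt3a1 and 34.3 and 16.1 with Dnmt3a2, so that TKO stood above every other library. Rpph1 lacks a polyA tail, and these are polyA libraries. A2m, a protease inhibitor, was at 5.05 and 0.479 RPKM, and Got1l1, a relative of aspartate aminotransferase, was at 22.4 and 3.61 RPKM. In the replicates of TKO+Dnmt3a2 both genes were also lower in replicate 1. Of these 12 genes 9 were lower by 1 or more in the DKO pair.

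Lower genes were unevenly spread over chromosomes. The median difference was -0.35 on chromosome 6, -0.28 on 8, -0.275 on 11, -0.22 on 12 and -0.32 on 16, and between -0.07 and 0.12 on the other autosomes and X. On these 5 chromosomes 12.04% of tested genes were lower by 1 or more, against 4.88% elsewhere. The 5 were picked for their low medians of this same difference, so that the larger share is partly fixed by that choice. TKO against WT, which shares the TKO library, had medians of 0.48, 0.06, 0.52, 0.27 and 0.49 on the same chromosomes. Dppa3 and Nanog lie on chromosome 6 and Aldoc on 11. With chromosome medians removed, limma called 80 genes in the TKO pair.

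Another test set the 1 library of TKO+Dnmt3b1 against the 4 libraries of TKO+Dnmt3a1 and TKO+Dnmt3a2 and did not use TKO. Its spread came from the same 2 replicated lines as in the test of the TKO pair. Limma called 441 genes (3.1%) as higher with Dnmt3b1 and 46 (0.323%) as lower, at an adjusted p under 0.05. The genes highest with Dnmt3b1 were Lce1g, by 4.21, Grem1, by 3.92, Dkk2, by 3.91, Tnc, by 3.89, and Lce1f, by 3.87. Of the fibroblast markers 23 of 30 were called as higher, and of the macrophage markers 12 of 16 tested. Among these 16 macrophage markers 4 reached 1 RPKM, and so were tested, through Dnmt3b1 libraries alone. The fibroblast level was 5.54 in TKO+Dnmt3b1 and 3.34 to 3.94 in the 4 Dnmt3a libraries. Among other lists the calls were, among tested members, 6 of 19 endoderm genes, 4 of 8 myofibroblast and smooth muscle genes, 3 of 15 immediate early genes and 1 of 28 Hox genes. Of the 19 endoderm genes 2 are also in the fibroblast list. The mean log2 level of the 19 was 3.577 in TKO+Dnmt3b1 and 2.433 to 2.685 in the Dnmt3a libraries. TKO, which this test leaves out, was at 3.282. The 5 lowest were Mir6999, Mir7077 and Mir718, each listed at 0 in TKO+Dnmt3b1, and 2 coding genes. Aurkc, a kinase of meiosis, was at 0.902 RPKM in TKO+Dnmt3b1 and 4.17 to 6.83 RPKM in the Dnmt3a lines, 2.08 lower (adjusted p 0.0346, limma). TKO was at 5.49 RPKM, DKO at 15.8 and DKO+Dnmt3b1 at 3.39 RPKM. Tekt1, a protein of cilia and flagella, was at 1.20 RPKM with Dnmt3b1 and 4.33 to 7.29 RPKM with Dnmt3a. The total of 487 calls was 0 with a pseudocount of 0.1, and it was 0 as well without either TKO+Dnmt3a1 library and in the fit that follows. It was 2007 without TKO+Dnmt3a2 replicate 1.

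A last fit took parent line and enzyme as additive terms and the fibroblast level of each library as a covariate, so that the Dnmt3b1 term is common to TKO and DKO. The covariate is the mean of the fibroblast list itself, so that the near-zero median of that list, 0.06, is fixed by construction and is no result. The median of the tested macrophage markers was 0.53. Col1a1 was at -0.13 and Tnc at 0.09, while Lce1g was at 3.17, Lce1f at 3.48, Il1rl1 at 2.91, Serpinb2 at 2.97, Il11 at 2.84, and Myc at 3.02. Of the 12 largest differences upward 11 were higher by 1 or more in this fit, Tnc being the exception. These 12 were picked by their size in the TKO pair, whose libraries also enter the fit. Their high values are thus partly fixed by that choice and are no separate evidence. Dppa3 was at -1.73, Bnip3 at -2.07 and Gstm3 at -4.29. Over tested members the list medians were 2.75 for the 2-cell-like state, 0.96 for secreted factors, -1.03 for hypoxia and glycolysis and -1.90 for the X-linked genes. In this fit no gene was called for the Dnmt3b1 term itself, nor in the difference between Dnmt3b1 and Dnmt3a. The values above are thus descriptions. The covariate is itself highest in the 2 Dnmt3b1 libraries, so that enzyme and fibroblast level cannot be fully told apart in it.

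**Figure D4:**
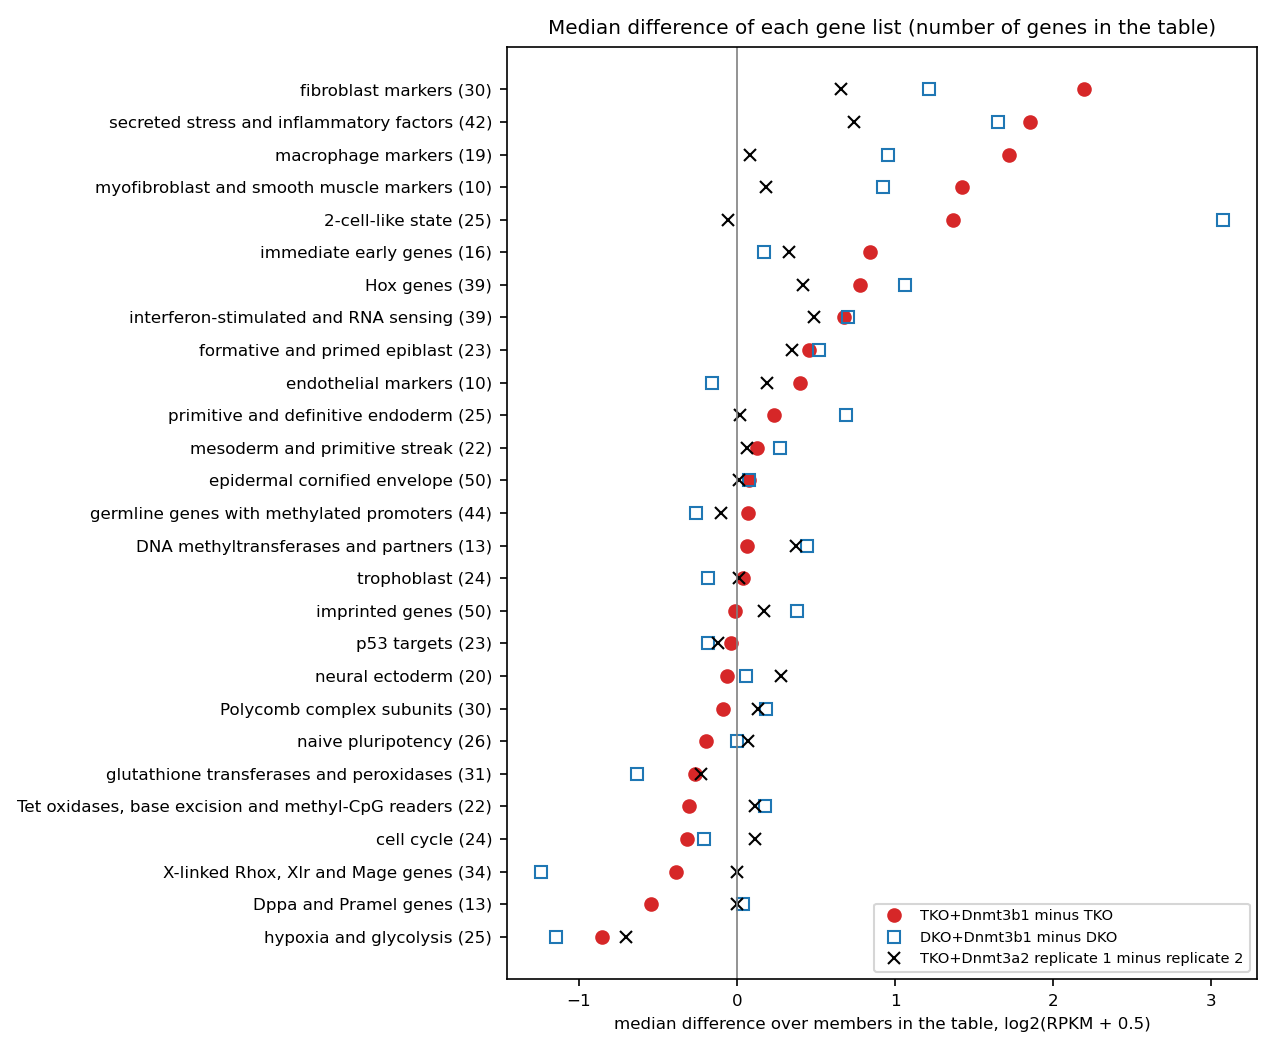
Median difference in log2(RPKM + 0.5) over every member in the table of 27 gene lists (number in brackets), for TKO+Dnmt3b1 minus TKO (red), DKO+Dnmt3b1 minus DKO (blue squares) and the replicates of TKO+Dnmt3a2 (crosses), ordered by the first. The fibroblast list is highest in red at 2.20, the 2-cell-like list is highest in blue at 3.075 with a cross at -0.054, and the hypoxia and glycolysis list lies at -0.86, -1.14 and -0.70.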

How the data were processed

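The library kit does not mark strand, per the labels' protocols, and reads of overlapping genes cannot be separated. The submitters' processing notes name bcl2fastq 1.8.4, STAR 2.4.0 and mm9. For 24016 genes the authors deposited RPKM; their counting tool and gene lengths are not given in the sources used here. Depth was estimated from whole-read spacing of transcripts of up to 400 nt, where 99.2% or more of values of up to 5 reads were whole within 0.05.

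The 14229 genes at 1 RPKM or more in a library were fitted as log2(RPKM + 0.5) with limma 3.58.1 (R 4.3.3; 9 group means, eBayes with a trend) and calls were made where the Benjamini-Hochberg adjusted p was under 0.05. Lone libraries were assumed to vary like TKO+Dnmt3a1 and TKO+Dnmt3a2 (2 libraries each); nothing says these came from separate cultures, so that p-values may measure technical spread.

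Named genes were the 12 largest differences upward and downward at 1 RPKM or more in an arm, the 12 largest upward within 4-fold of DKO+Dnmt3a2, list members that were called or among the 2 largest each way, the 5 largest calls each way against the Dnmt3a lines, and fixed methylation and collagen genes. Genes at a middle position in a list (Klf4, Esrrb, Sox2, Pou5f1, Vegfa, Isg15, Dazl, Tex19.1, Rhox9, Ccl2, Otx2, Il11, Fos, Hoxa5 and others) and the TKO+Dnmt3a2 replicate gap were chosen after values were seen. The 27 lists and all comparisons were chosen with earlier results of these data known. Promoters came from RefSeq (GRCm38.p6) and were matched by symbol, and their coordinates were not mixed with mm9. The table held 0 other per-sample columns. Some genes that meet the naming rule are not reported here.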

Additional observations from a re-analysis of the deposited data

Results flagged for a closer look

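Of the named genes, 4 differed by 1 or more in opposite directions in the 2 parent lines when Dnmt3b1 was put back. Ctcfl, the germline relative of the insulator protein Ctcf, was higher by 1.66 in TKO+Dnmt3b1 than in TKO and lower by 1.41 in DKO+Dnmt3b1 than in DKO (a difference of -1.413). Krt7, a simple epithelial keratin, was higher by 1.29 in the TKO pair, with a difference of -1.74 in the DKO pair. Pramel6, a gene of early embryos, had a difference of -1.07 in the TKO pair and 1.24 in the DKO pair. The hairpin Mir3094 had -2.54 and 1.54, from 4 reads in TKO and 0 in TKO+Dnmt3b1. The test of each of these differences between parent lines in limma gave an adjusted p of 0.995, with 1 library an arm, so that none is shown to differ.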

How the results depend on the processing

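The fibroblast difference kept its direction under 2 other pseudocounts and 2 other scalings, at 1.91 to 2.05. Of 14229 genes, the 0 calls between TKO+Dnmt3b1 and TKO became 121 with no filter, 102 with a filter of 5 RPKM, 80 with chromosome medians removed, 3467 in the additive fit (where TKO and DKO share 1 Dnmt3b1 term) and 1002 with the replicate number as a block. The 487 calls against the Dnmt3a lines became 0 with a pseudocount of 0.1, 283 with no filter, 929 with chromosome medians removed, 0 in the additive fit with the fibroblast level and 2954 without it, and ran from 0 to 2007 when 1 library was left out (0 without TKO+Dnmt3a1 replicate 1 or 2, 2007 without TKO+Dnmt3a2 replicate 1, 253 without its replicate 2). The 0 calls in the DKO pair became 27 with a pseudocount of 1, 155 with no filter, 417 with a filter of 5 RPKM, 423 with chromosome medians removed, 3467 in the additive fit and 1441 with the block. The 0 calls of the difference between parent lines became 105 with no filter; the additive fits hold no such term and were not run for it. Genes higher by 1 or more numbered 889, and lower 593, with the filter of 5 RPKM, which tests fewer genes. Of 27 gene lists 7 had a median of 1 or more over tested members, and 5 with a pseudocount of 1 or with no filter. With no filter (genes at 0 in every library left out) and with a filter of 5 RPKM the median went from 1.16 to 0.78 and 2.04 for Hox genes and from 1.45 to 0.16 and 2.71 for the cornified envelope; with a pseudocount of 0.1 it went from 1.44 to 2.28 for the 2-cell-like state. The cause of the other changes was not tested. Replicate numbers were shared by TKO+Dnmt3a1 and TKO+Dnmt3a2 alone, whose gaps correlated across genes at 0.086, so that the block rests on a number and not on a pairing.

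In the additive fit with the fibroblast level the Dnmt3b1 term is shared by TKO and DKO. For 11 of 143 named genes its sign was opposite to the difference of the TKO pair. These were Mir3094 (0.87), Pramel6 (0.85), Lox (-0.002), Mir6907 (-0.055), Col1a1 (-0.13), Ctcfl (-0.32), Adm (-0.32), Dcn (-0.45), Cdkn1a (-0.63), Col1a2 (-0.996) and Krt7 (-1.32). Lox, Col1a1, Dcn and Col1a2 belong to the fibroblast list that forms the covariate. Mir3094, Pramel6, Ctcfl and Krt7 differed in opposite directions in the TKO and DKO pairs. In the additive fit without the fibroblast level the shared term turned for Pramel6 (0.085) and Krt7 (-0.23). No other alternative turned a named gene. Depth limits the short RNAs and genes near 1 RPKM.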

Other observations

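Gene groups that belong to other lineages or to growth control did not share a direction. Of 22 mesoderm genes 3 were higher by 1 or more and 1 lower, with a median of 0.12; Snai2, a factor of epithelial to mesenchymal transition, was at 2.54 RPKM in TKO, 19.3 in TKO+Dnmt3b1 and 0.361 RPKM in DKO+Dnmt3a2. Of 20 neural genes 3 were higher and 2 lower, with a median of -0.064; Sox21, a factor of neural progenitors, was at 7.58 and 1.86 RPKM in the pair. Of 25 endoderm genes 3 were higher and 1 lower, with a median of 0.24. Of 24 trophoblast genes 4 were higher and 2 lower, with a median of 0.04; Tfap2c, a regulator of trophoblast and germ cells, was at 42.7 RPKM in TKO and 18.2 RPKM in TKO+Dnmt3b1 and was called as lower than in the Dnmt3a lines, at 37.3 to 54.9 RPKM.

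Of 10 myofibroblast and smooth muscle genes 6 were higher by 1 or more, with a median of 1.43; Acta2, smooth muscle actin, was at 14.6 and 85.6 RPKM in the TKO pair. Of 24 cell cycle genes 4 were higher and 2 lower, with a median of -0.32; the cyclin Ccnd2 was at 6.75 and 37.9 RPKM and the mitotic kinase Aurkb at 69.2 and 31.0 RPKM. Of 23 targets of p53 2 were higher and 1 lower, with a median of -0.035; the cell cycle inhibitor Cdkn1a was at 60.2 and 155 RPKM in the pair and 17.7 RPKM in DKO+Dnmt3a2. Of 30 Polycomb subunits 2 were higher and 3 lower, with a median of -0.087. Suz12, a core subunit, was at 157 and 65.1 RPKM and lies on chromosome 11, where the median was -0.275. The part of feeder RNA in these values was not tested.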
